A study of Rattus norvegicus with 48 samples.

Results

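Kidneys of rat strain F were compared with kidneys of rat strain L after 10 days of indole-3-carbinol, with 4 arrays per strain and every probe set of the table. These 8 arrays are those whose titles name F or L at day 10, and they belong to a series of 48 arrays. All rats were male, with an age of 12 weeks in the sample labels and of 12 to 14 weeks in the treatment protocol. Both groups received 100 mg of indole-3-carbinol per kg body weight per day by gastric gavage, and the labels call this period induction. The other arrays used here are F and L kidneys after 7 days of the same dose, F and L kidneys given only vegetable oil (day 0), and kidneys of 2 further strains, FL and LF, at day 10. The labels give 8 rats per group and do not say what the letters F, L, FL and LF stand for. The series design counts the 4 arrays of a group as biological replicates, but whether 1 array holds RNA of 1 rat or of a pool is not stated, so the p-values measure the spread between arrays.

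Indole-3-carbinol occurs in cabbages, and stomach acid turns it into products that bind the aryl hydrocarbon receptor. This transcription factor switches on Cyp1a1 and other genes of foreign-compound metabolism. In the kidney, foreign compounds and steroids are handled mainly by the proximal tubule, which carries transporters, carboxylesterases, aldo-keto reductases and cytochromes P450. The kidney also makes several parts of the renin angiotensin system, in which renin cuts angiotensinogen (Agt) and angiotensin converting enzyme (Ace) makes the active peptide angiotensin II.

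Values are log2 array signals, so a difference of 1 is a doubling, and each difference is F minus L with its standard error from limma. A gene is called higher in a strain where the adjusted p (limma, Benjamini-Hochberg over all 8797 probe sets) was below 0.05. Levels of different probe sets are not compared with each other. The labelled tissue was borne out by its defining genes. Umod, made by the thick ascending limb, lay at 12.53 to 12.87 in F and 12.73 to 12.89 in L, and the collecting duct water channel Aqp2 at 9.20 to 9.82 and 9.25 to 9.69. The proximal tubule receptor Lrp2 lay at 11.64 to 11.97 and 11.73 to 11.97. None of these 3 genes passed the threshold.

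The SD over probe sets of an array, its spread, was 2.31 to 2.50 in F and 2.44 to 2.52 in L. The lowest value was that of F replicate 4, which also had the lowest array median (5.70, against 5.82 to 5.94 in the other F arrays and 5.87 to 6.01 in L). Arrays correlated within strains at 0.979 to 0.988 in F and 0.989 to 0.992 in L. Array codes in the labels share 1 stem per replicate number, and each number holds 1 array of each group. The labels do not say what the stem stands for, and the replicate number is used as a block only in an alternative fit.

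At day 10, 340 of the 8797 probe sets differed between F and L, which is 3.86% of those tested. Of these, 73 were higher in F (0.83%) and 267 were higher in L (3.04%). The median difference over all probe sets was -0.07, and the split between the strains depended on the scaling of the arrays. With array medians subtracted, which moved the median of all probe sets by 0.13, 222 were higher in F and 214 in L, and after a second quantile normalization 200 and 222. With the array spread as a covariate the counts were 202 and 162, and with the replicate number as a block 125 and 686. Without F replicate 4, 174 probe sets passed (60 higher in F, 114 in L), and without F replicate 1, 630 passed (94 and 536). The count was 221 without F replicate 2, and 180, 189 and 224 without L replicates 1, 3 and 4. The fit on the 8 arrays alone gave 67. A call is described as kept where it was past the threshold with the same sign after both rescalings, with the spread covariate and with the replicate block. Kept does not require a call in the fit on the 8 arrays alone, and some kept calls were lost there. For gene lists, counts under other fits are given in the order F, then L. The shares to set beside each list count are those of all 7589 named genes, 0.83% called higher in F and 3.15% higher in L. Of the 340, 176 were kept (2% of all probe sets), 54 of them higher in F (0.614%) and 122 higher in L (1.39%). Leaving out each of the 8 arrays in turn kept 31 (0.352%) and 69 (0.784%) of those.

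Counted without a model, the 4 F arrays lay above all 4 L arrays at 184 probe sets (2.09%) and below them at 584 (6.64%). The genes nearest the threshold differed little on either side of it. C1h11orf58 (-0.40, adjusted p = 0.0491 by limma) and Epas1, a hypoxia-inducible factor subunit (-0.38, adjusted p = 0.0493), passed without being kept, and Synj2 (-0.27) and Ino80e (-0.41) did not, both at an adjusted p of 0.0511.

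**Figure D1:**
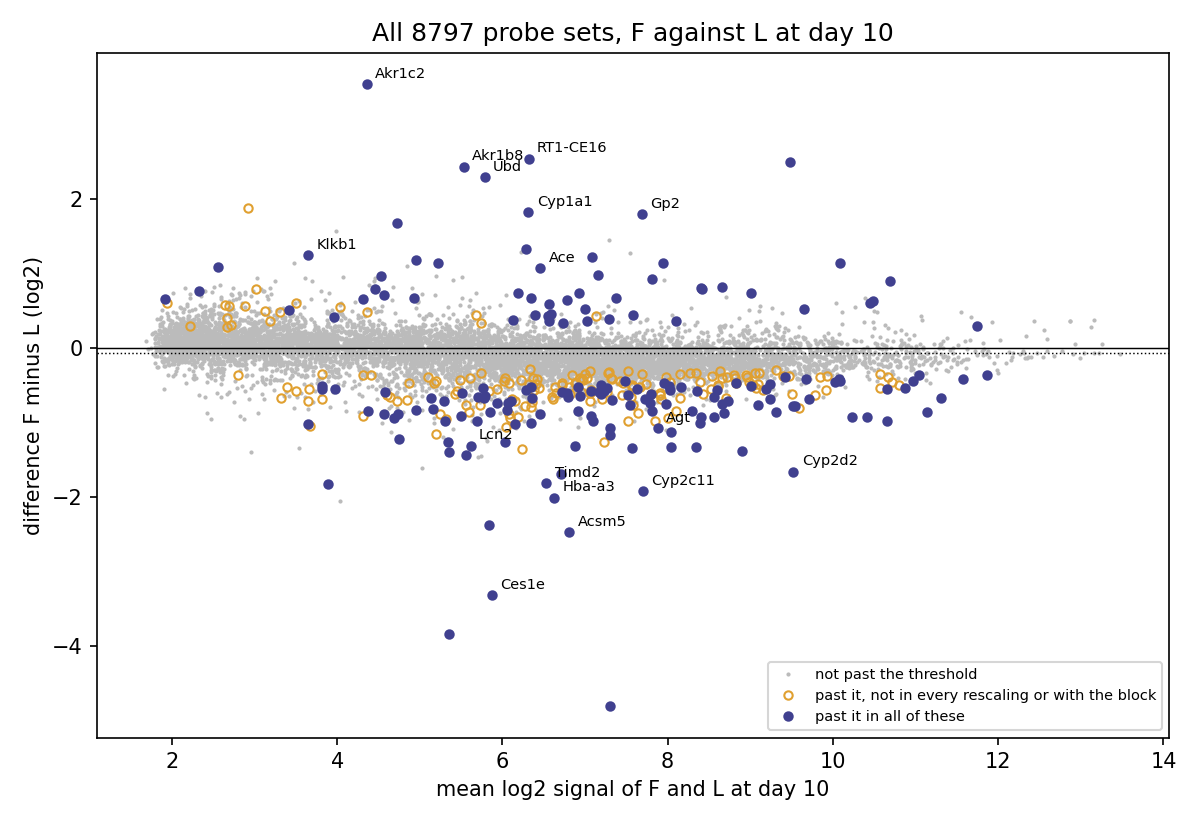
Difference F minus L (log2, vertical axis) against the mean log2 signal of F and L at day 10 (horizontal axis) for all 8797 probe sets. Dark points are the 176 kept calls, open points the other calls, the solid line marks 0 and the dotted line the median of -0.07. The kept calls reach further from 0 than most other calls in both directions.

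The genes with the largest differences included enzymes of steroid and foreign-compound metabolism, immune and histocompatibility genes and membrane proteins. By the naming rule, the 15 largest differences in each direction are described among called genes with 1 symbol and no overlap of the arrays. The 15 genes higher in F exceeded L by 1.90-fold to 11.7-fold, and the 15 genes higher in L exceeded F by 2.40-fold to 10.0-fold. All 30 were kept, 29 also without each array in turn. The exception was Gabarapl2, an autophagy gene, which was lost without L replicate 3 (adjusted p = 0.0641).

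**Figure D2:**
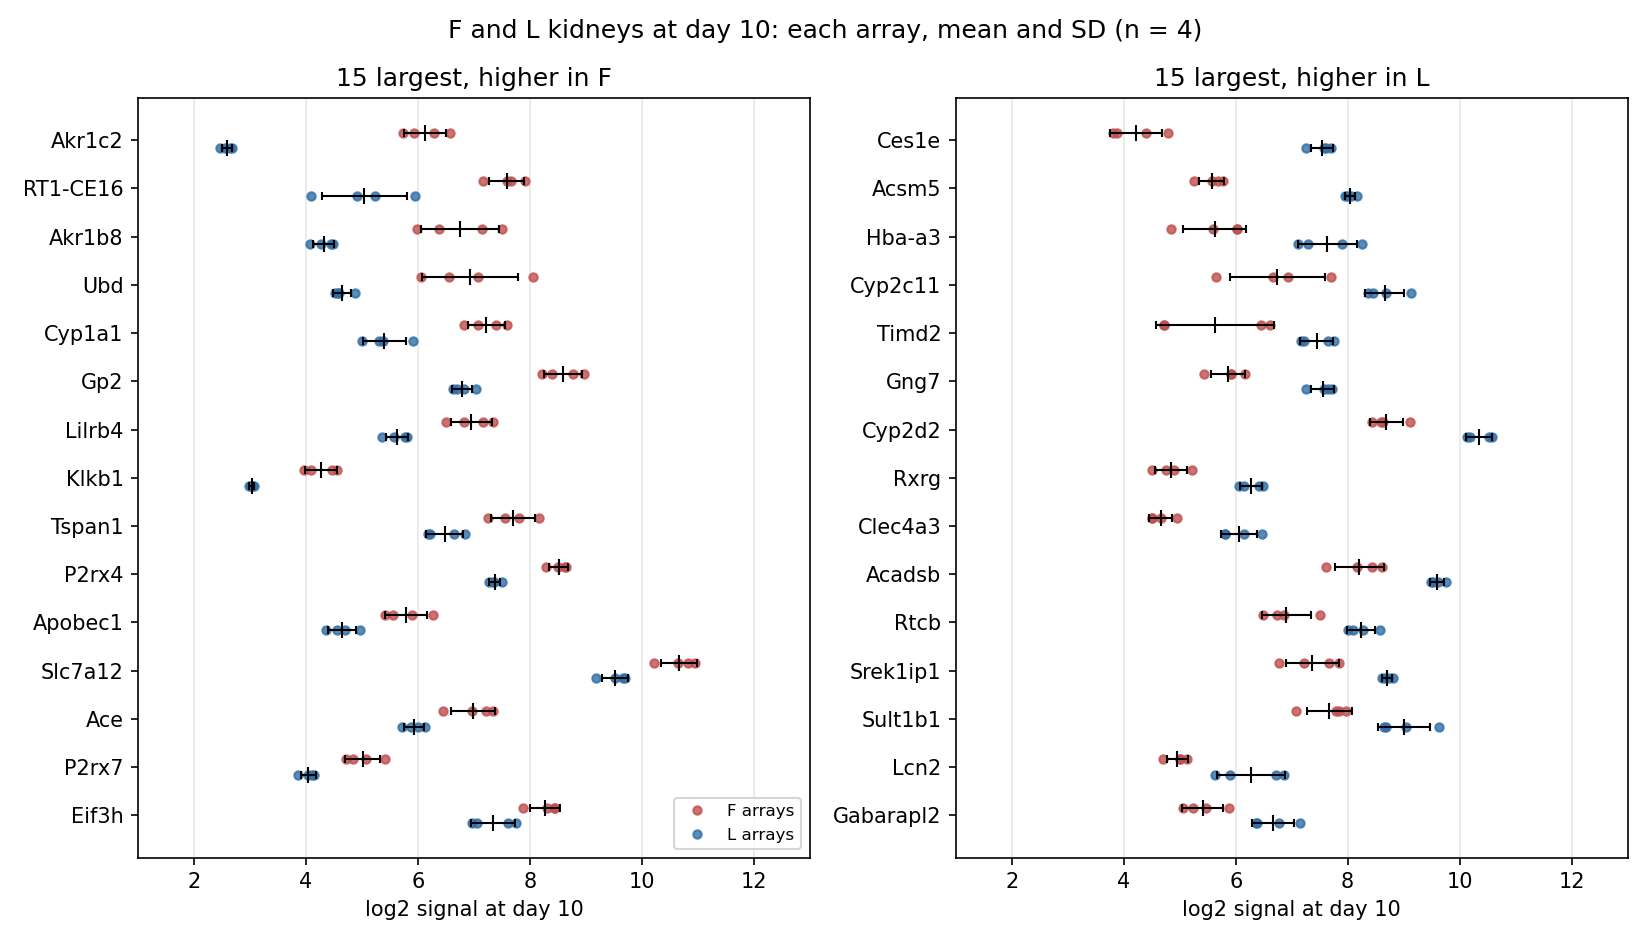
Log2 signal at day 10 (horizontal axis) of the 15 genes with the largest differences higher in F (left) and higher in L (right). Each point is 1 array, and the black marks give the mean and SD of 4 arrays per strain. The naming rule requires that the F and L arrays of each gene shown occupy separate ranges.

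The phase 1 and phase 2 metabolism list held the largest differences of both signs among the members of the 30 lists. Of its 68 measured genes, 2 were higher in F and 8 in L, of which 2 and 6 were kept, beside 0.83% and 3.15% of all 7589 named genes called. The counts were 4 and 8 with array medians subtracted, 3 and 9 after the second quantile normalization, 4 and 6 with the spread covariate and 3 and 20 with the replicate block. The list median was -0.10, near that of all probe sets, and 16 members had arrays that did not overlap, 5 with F above L and 11 with L above F, beside 2.09% and 6.64% of all probe sets. A few enzymes thus differed by large amounts while the middle of the list lay near the rest of the array.

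Akr1c2, an aldo-keto reductase of the family that acts on steroids, lay at 6.28, 5.74, 5.93 and 6.58 in F and at 2.68, 2.64, 2.47 and 2.56 in L. Every F array stood more than 3 log2 units above every L array. The difference was 3.54 ± 0.25, or 11.7-fold (adjusted p = 9.94e-14, limma). Akr1b8, an aldo-keto reductase that reduces aldehydes, lay at 7.51, 6.37, 7.15 and 5.98 in F and at 4.49, 4.44, 4.07 and 4.26 in L. The F arrays were spread more widely than the L arrays but did not reach them, with a difference of 2.44 ± 0.47 (adjusted p = 0.00106). Its relative Akr1b10 had F arrays above L arrays, with a difference of 1.28 ± 0.41, and did not pass the threshold (adjusted p = 0.0752).

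Ces1e, a carboxylesterase that splits esters and amides, lay at 4.79, 3.80, 4.39 and 3.87 in F and at 7.58, 7.70, 7.25 and 7.61 in L. The strains were separated by more than 2 log2 units, and the difference was -3.32 ± 0.22, or 10.0-fold higher in L (adjusted p = 1.17e-14). Acsm5, a mitochondrial medium-chain acyl-CoA synthetase, lay at 5.78, 5.26, 5.57 and 5.68 in F and at 7.99, 7.96, 8.05 and 8.17 in L. Its arrays were tight in both strains, with a difference of -2.47 ± 0.11 and the smallest adjusted p among the 30 genes (6.50e-20).

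The cytochrome P450 Cyp2c11, a male-specific steroid hydroxylase in rat liver, lay at 7.70, 5.65, 6.66 and 6.94 in F and at 9.13, 8.45, 8.68 and 8.37 in L. F replicate 2 was the lowest array and the ranges did not meet, with a difference of -1.92 ± 0.43 (adjusted p = 0.00596, and 0.0490 without F replicate 2). Cyp2d2, a P450 of drug metabolism, lay at 9.11, 8.59, 8.63 and 8.43 in F and at 10.58, 10.13, 10.52 and 10.18 in L. Its difference was -1.66 ± 0.17 (adjusted p = 1.75e-09), with a gap between the strains of about 1 log2 unit. Sult1b1, a sulfotransferase of phenols and thyroid hormones, was higher in L by 2.51-fold (-1.33 ± 0.26, adjusted p = 0.000926). Akr7a3, an aldehyde reductase, differed by -0.68 ± 0.14 (adjusted p = 0.00276) and was kept. Ugt2b7, a glucuronosyltransferase (-0.68), and Cyp4b1 (-0.47) were called at adjusted p of 0.0394 and 0.0155, and neither was kept. Acadsb, which oxidises short branched acyl-CoA from isoleucine, was higher in L by 2.61-fold (-1.38 ± 0.18, adjusted p = 1.14e-06) and was kept. Probe signals within the Akr1c, Akr1b, Ces1, Cyp2c and Cyp2d families can be shared between near-identical members, and sequence differences between the strains under the probes were not examined here.

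The aryl hydrocarbon receptor list had 8 measured genes, among them the receptor Ahr and its partner Arnt beside target genes. Only Cyp1a1 was called, and it was higher in F and kept. Cyp1a1, the P450 that serves as the standard readout of this receptor, lay at 6.83, 7.08, 7.39 and 7.60 in F and at 5.30, 5.38, 5.92 and 5.0 in L. All F arrays stood above all L arrays, with a difference of 1.82 ± 0.43, or 3.54-fold (adjusted p = 0.0101, and 0.0474 without F replicate 4). In carrier kidneys the strains overlapped, with 4.22, 3.84, 4.23 and 4.75 in F and 3.57, 4.0, 4.14 and 4.08 in L, a difference of 0.31 ± 0.43 (adjusted p = 0.988). At day 7 the difference was 1.64 ± 0.43 (adjusted p = 0.0307). Within F, Cyp1a1 at day 10 was higher than at day 0 by 2.96 ± 0.43 (adjusted p = 0.00015), and within L the same difference was 1.45 ± 0.43 and did not pass (adjusted p = 0.694). All L arrays at day 10 still lay above all L arrays at day 0. That contrast within L called only 1 of 8797 probe sets, against 21 within F, so a missed threshold in L does not show that Cyp1a1 was unchanged there. The direct test of whether the strain difference at day 10 exceeded that at day 0 gave 1.51 ± 0.61 with an unadjusted p of 0.0183 and an adjusted p of 0.783, so that change between days is not established by limma. The median over the 8 genes of this list was 0.03.

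Of 20 measured genes of the renin angiotensin and kinin system, Ace and Klkb1 were higher in F and Agt was higher in L. All 3 calls were kept, and they stand beside 0.83% and 3.15% of all 7589 named genes. The counts were 3 and 1 after either rescaling and with the spread covariate, and 2 and 7 with the replicate block. Ace lay at 7.34, 6.97, 7.21 and 6.45 in F and at 5.87, 6.0, 5.71 and 6.12 in L. F replicate 4 was the F array closest to L, and the ranges were still separate, with a difference of 1.07 ± 0.16, or 2.10-fold (adjusted p = 1.59e-05). Agt, the precursor of all angiotensin peptides, lay at 7.53, 7.40, 7.32 and 7.10 in F and at 8.57, 8.24, 8.38 and 8.47 in L. The strains did not overlap, and the difference was -1.08 ± 0.14, or 2.11-fold higher in L (adjusted p = 1.40e-06). Klkb1, plasma prekallikrein, which frees bradykinin from its precursor once activated, lay at 4.47, 4.56, 4.09 and 3.96 in F and at 3.02, 3.07, 3.04 and 2.98 in L. Its L arrays spanned less than 0.1 log2 units and the difference was 1.24 ± 0.15 (adjusted p = 3.34e-07).

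Agtr1a, the main angiotensin II receptor of the kidney, lay at 7.24, 6.67, 6.92 and 6.09 in F and at 7.68, 6.93, 7.52 and 7.24 in L. The arrays overlapped, and the difference of -0.61 ± 0.20 did not pass the threshold (adjusted p = 0.0874), but it did with the replicate block (adjusted p = 0.0333). Mme, the peptidase neprilysin, differed by 0.19 ± 0.13 (95% interval -0.08 to 0.46), and the mineralocorticoid receptor Nr3c2 by -0.42 ± 0.14 (adjusted p = 0.0935). The renin gene had no named probe set and was not analysed here. The list median was -0.20.

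The measured neighbours of Ace were also looked at. In the gene order of the rat RefSeq annotation (GRCr8), Hexim1 (-0.49, adjusted p = 0.0110) was the only called gene among the 15 measured genes on either side of Ace. Its call was kept. Among all 7589 named genes, 3.98% were called, so this count is not read as a result about the region. Over all 7570 genes placed in that order, 24 of 302 called genes had a called neighbour (7.95%), against 7.71% of genes that were not called. P2rx4 and P2rx7, neighbouring genes for ATP-gated ion channels, formed the only kept pair that was higher in F. P2rx4 lay at 8.63, 8.64, 8.51 and 8.28 in F against 7.36, 7.27, 7.34 and 7.51 in L, and P2rx7 at 5.41, 4.84, 5.08 and 4.71 against 4.04, 4.11, 3.85 and 4.15. Their differences were 1.15 ± 0.15 and 0.97 ± 0.16 (adjusted p = 1.14e-06 and 5.53e-05). Kept neighbouring pairs higher in L were Ttpa with Ggh (-0.94 and -0.86) and Myo5a with Gnb5 (-0.61 and -0.57). The share of called genes per chromosome ran from 1.86% to 7.83%.

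Several immune genes stood among the largest differences, in both directions. RT1-CE16, a rat class I histocompatibility gene, lay at 7.92, 7.59, 7.67 and 7.17 in F and at 5.94, 4.91, 5.24 and 4.09 in L. The L arrays spread over nearly 2 log2 units below the F arrays, with a difference of 2.54 ± 0.25 (adjusted p = 9.06e-10). RT1-M3-1, a nonclassical class I gene, was called higher in L (-0.48 ± 0.14, adjusted p = 0.0440) and was not kept. These were the only 2 calls among 18 histocompatibility genes, whose sequences vary between rat strains and resemble each other. After the rescaling by medians, the second quantile normalization and the spread covariate, 2, 3 and 1 were called higher in F and 0 higher in L. Ubd, a ubiquitin-like protein made in inflamed epithelium, lay at 7.07, 8.06, 6.06 and 6.55 in F and at 4.51, 4.87, 4.58 and 4.59 in L. Its F arrays varied by 2 log2 units while its L arrays were tight, and the difference was 2.30 ± 0.37 (adjusted p = 6.47e-05). The inhibitory leukocyte receptor Lilrb4 was higher in F (1.33 ± 0.25, adjusted p = 0.000797). The myeloid lectin receptor Clec4a3 (-1.40 ± 0.26, adjusted p = 0.000482) and the eosinophil-attracting chemokine Ccl24 (-1.26 ± 0.22, adjusted p = 0.000205) were higher in L. All 3 were kept.

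Of 21 measured macrophage and myeloid markers, 8 were higher in L and 0 in F, beside 3.15% and 0.83% of all 7589 named genes, and the list had the lowest median of the 30 lists (-0.42, against -0.07 over all probe sets). The 8 were Cd4, which rat macrophages share with helper T cells, the lysozyme Lyz2, the complement genes C1qa and C1qc, the receptors Fcgr3a and Adgre1, the oxidase subunit Cybb and the lysosomal Laptm5. Cd4 lay at 6.17, 5.94, 5.99 and 5.28 in F and at 6.57, 6.91, 6.93 and 7.0 in L, so the arrays did not overlap, with a difference of -1.01 ± 0.18 (adjusted p = 0.000421). Lyz2 lay at 8.80, 8.95, 8.86 and 8.23 in F and at 9.75, 9.06, 9.78 and 9.33 in L, with F replicate 2 and L replicate 2 near each other and a difference of -0.77 ± 0.19 (adjusted p = 0.0133, and 0.113 without F replicate 4). Cd4 and Lyz2 were the only kept members, and Aif1, another macrophage marker, did not differ beyond its spread (-0.03 ± 0.13).

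The mean log2 level over the 21 markers was 5.70 to 6.07 in the F arrays and 6.12 to 6.47 in the L arrays. The 8 calls were 6 after either rescaling, 2 with the spread covariate, 8 with the replicate block, 4 in the 24 arrays of F and L and 0 in the 8 arrays alone. They were 2 without F replicate 4 or L replicate 1, 3 without L replicate 3, 4 without L replicate 4 and 5 without F replicate 3. The list median stayed negative after the rescaling by array medians (-0.29) and with the spread covariate (-0.27). F replicate 4 had the lowest signal for Cd4, Lyz2, C1qa, Fcgr3a, Adgre1 and Cybb. The part of the array spread in these values was not tested beyond those fits, and in whole kidney fewer cells of a type and less RNA per cell cannot be told apart. In carrier kidneys the list median was -0.20, and at day 7 it had the opposite sign, at 0.10.

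Other blood cell lists had 0 or 1 call each, beside 0.83% of all 7589 named genes called higher in F and 3.15% higher in L. Of 21 T and natural killer cell markers only Cd4, shared with the list above, was called, and of 15 granulocyte and mast cell markers and 5 B and plasma cell markers none was called by limma (0 and 1 at an unadjusted p below 0.05). Of 23 interferon response genes none was called, with or without the replicate block, and 4 had an unadjusted p below 0.05. The antiviral genes Mx1 (-0.81, adjusted p = 0.140) and Mx2 (-0.91, adjusted p = 0.0992) had L arrays that spread widely, from 3.69 to 5.86 and from 5.19 to 7.03, and overlapped F. The alpha globin gene Hba-a3 lay at 5.60, 6.02, 6.03 and 4.84 in F and at 8.25, 7.29, 7.11 and 7.89 in L, a difference of -2.01 ± 0.33 (adjusted p = 9.88e-05, kept). The beta globin Hbb-b1 lay at 9.02, 9.76, 9.26 and 8.29 in F and at 10.26, 9.32, 9.18 and 9.19 in L. The beta globin arrays overlapped and their difference was -0.41 ± 0.34 (adjusted p = 0.504). The difference between the alpha and the beta globin was not tested. Alpha globin genes are near copies of each other and may share probe signal.

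The 31 measured tubular injury and repair genes had a median of 0.16. Krt19 was higher in F and Lcn2 higher in L, both kept, beside 0.83% and 3.15% of all 7589 named genes. The counts were 4 and 1 after either rescaling and with the spread covariate, and 3 and 3 with the replicate block. They were 0 and 0 in the 8 arrays alone. Lcn2, a secreted siderophore-binding protein that damaged tubules release, lay at 5.0, 5.01, 4.70 and 5.12 in F and at 6.71, 5.89, 6.86 and 5.62 in L. The L arrays were all above the F arrays, in 2 pairs, and the difference was -1.31 ± 0.20 (adjusted p = 4.18e-05, kept). Krt19, a keratin of simple and regenerating epithelium, lay at 8.25, 8.00, 7.52 and 6.79 in F and at 6.73, 6.41, 6.93 and 6.57 in L. F replicate 4 fell within the L range, and the difference of 0.98 ± 0.28 (adjusted p = 0.0359) was lost without any of 6 of the arrays, all but F replicate 4 and L replicate 3, with the largest adjusted p (0.118) without F replicate 2.

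Havcr1, the kidney injury molecule shed by proximal tubules, lay at 7.37, 7.68, 5.44 and 7.0 in F and at 6.63, 4.56, 7.04 and 4.09 in L. Both strains had high and low arrays, and the difference of 1.29 ± 0.54 did not pass the threshold (adjusted p = 0.173). At day 0 all 8 arrays had lain between 3.63 and 4.32, and at day 7 F lay at 6.14 to 7.61 and L at 3.48 to 4.23. Hmox1, the stress-induced haem oxygenase, lay at 8.61, 9.09, 8.64 and 5.74 in F and at 7.41, 8.64, 5.11 and 5.10 in L, again with overlap (1.46 ± 0.86, adjusted p = 0.340). At day 7 the strains had not overlapped for Hmox1, with 5.75 to 9.71 in F and 4.40 to 5.17 in L. For both genes the 2 high L arrays at day 10 included replicate 1, and the second was replicate 3 for Havcr1 and replicate 2 for Hmox1. Igfbp1 (0.91, adjusted p = 0.0737) and Fgb (0.71, adjusted p = 0.0727) had F arrays higher on average and did not pass in the main fit. Among the alternative fits, both passed with the replicate block (adjusted p = 0.0379 and 0.0400). Clusterin (Clu, 0.23 ± 0.21) and Timp1 (0.27 ± 0.20) overlapped.

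The antioxidant Nrf2 and glutathione list had 2 calls of 22, both higher in L and kept, beside 3.15% of all 7589 named genes. The counts were 2 and 2 with array medians subtracted and with the spread covariate, 1 and 3 after the second quantile normalization and 0 and 4 with the replicate block. These were Sod1, the cytosolic superoxide dismutase (-0.55 ± 0.10, adjusted p = 0.000392), and Gstt1, a glutathione transferase (-0.72 ± 0.13, adjusted p = 0.000328). Prdx1 had the largest difference of the list by size (-2.06 ± 1.04), with SDs of 1.60 in F and 1.23 in L, and did not pass (adjusted p = 0.261). Of 25 matrix and fibrosis genes, fibrillin Fbn1 (-0.59 ± 0.12, adjusted p = 0.00175) and its partner Ltbp1 (-0.50 ± 0.12, adjusted p = 0.0104, and 0.0574 without F replicate 4) were higher in L and kept, with counts of 1 and 2 with the spread covariate and 0 and 4 with the replicate block. Of 39 fatty acid oxidation genes, the thiolase Acaa2 was higher in F (0.62 ± 0.13, adjusted p = 0.00309, kept) and the dehydrogenase Acadm higher in L (-0.39 ± 0.10, adjusted p = 0.0224, not kept). The split of this list turned with the fit. It was 2 and 0 after either rescaling, 4 and 0 with the spread covariate and 1 and 5 with the replicate block. In the 8 arrays alone it was 0 and 0. Of 26 sterol and fatty acid synthesis genes, only the sterol desaturase Sc5d was called (-0.76 ± 0.15, adjusted p = 0.00127, kept), while the counts were 3 and 1 after the second quantile normalization and 6 and 1 with the spread covariate. None of 17 cell cycle genes and none of 28 p53 and growth arrest genes was called by limma, with 1 and 7 at an unadjusted p below 0.05 and 1 and 4 called higher in L with the replicate block. Of the p53 genes, 1, 2 and 1 were called higher in F with array medians subtracted, after the second quantile normalization and with the spread covariate.

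Nephron and vessel markers had calls higher in L and none higher in F, but the direction depended on the scaling, and 1 call was kept. It was Slco1a6, a proximal tubule organic anion transporter, at 10.33, 10.38, 10.06 and 9.90 in F and at 11.14, 11.19, 11.18 and 11.08 in L (-0.98 ± 0.12, adjusted p = 3.00e-07). Of the 35 proximal tubule markers, Cyp24a1, Slc2a2 and Slc26a1 were also called (-1.26, -0.52 and -0.46), while the phosphate transporter Slc34a1 differed by -0.11 ± 0.07 without passing. One gene was called among 25 loop and distal tubule markers, the calcium binder Calb1 (-0.81 ± 0.24, adjusted p = 0.0491), and 1 among 22 collecting duct markers, the sodium pump regulator Fxyd4 (-0.62, adjusted p = 0.0261). The counts were 2 of 15 podocyte, 3 of 16 endothelial and 3 of 17 smooth muscle, pericyte and fibroblast markers, all higher in L and none kept. The podocyte and endothelial counts share Podxl, and the endothelial call Nos3 recurs among the vasoactive genes below. Among all 7589 named genes, 3.15% were called higher in L and 0.83% higher in F. With the replicate block, the 6 lists had 10, 2, 4, 4, 5 and 4 calls higher in L and 1, a proximal tubule marker, higher in F. For proximal tubule markers the counts became 2 and 2 after either rescaling and 2 and 1 with the spread covariate. For loop and distal tubule markers they became 1 and 0 with array medians subtracted and with the spread covariate, and 0 and 0 after the second quantile normalization. For collecting duct markers they became 0 and 1, 2 and 1, and 1 and 0 in the 3 fits. Smooth muscle, pericyte and fibroblast markers had 1 call higher in F with the spread covariate, and podocyte and endothelial markers had none higher in F in these fits. Medians of these 6 lists ran from -0.30 to -0.13 and, with array medians subtracted, from -0.17 to -0.0025, and with the spread covariate from -0.12 to 0.07, with the loop and collecting duct lists above 0.

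**Figure D3:**
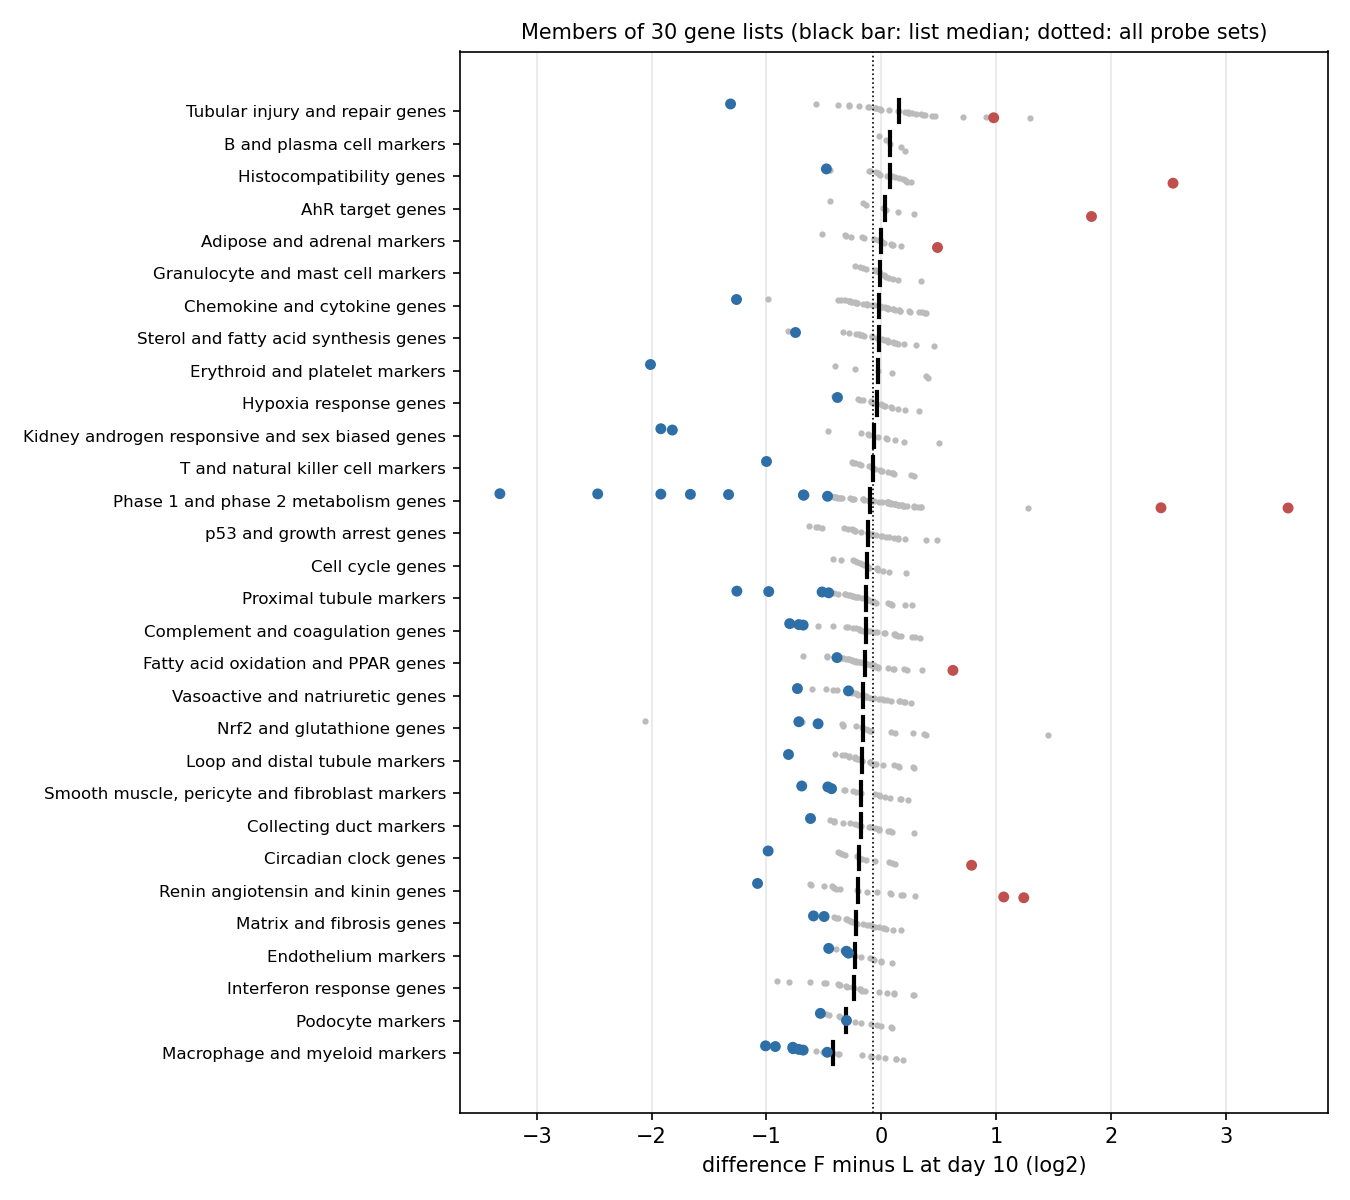
Difference F minus L at day 10 (log2, horizontal axis) of each measured member of 30 gene lists (rows), ordered by list median. Red points were called higher in F, blue points higher in L, grey points did not pass; black bars are list medians and the dotted line is the median of all probe sets. The macrophage and myeloid markers lie furthest left, at a median of -0.42, and the largest single differences among list members are in the phase 1 and phase 2 metabolism list.

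The remaining lists had 1 to 3 calls each, beside 0.83% of all 7589 named genes called higher in F and 3.15% higher in L. Of 30 complement and coagulation genes, C1qa, C1qc and the thrombin receptor thrombomodulin (Thbd, -0.80, adjusted p = 0.0405) were higher in L, and of 32 vasoactive genes the endothelial nitric oxide synthase Nos3 (-0.28, adjusted p = 0.00854) and the receptor Calcrl (-0.73, adjusted p = 0.0480). None of these 5 was kept. The vasoactive counts were 1 and 1 after either rescaling and with the spread covariate, and 0 and 5 with the replicate block. The complement counts were 1 and 2 after either rescaling, 1 and 0 with the spread covariate and 0 and 4 with the block. Of 43 chemokine and cytokine genes only Ccl24 was called, with 3, 1 and 2 higher in F with array medians subtracted, after the second quantile normalization and with the spread covariate. Of 12 androgen responsive or sex biased genes, Cyp2c11 and Timd2 were called, but neither in the 8 arrays alone. Of 17 adipose and adrenal markers, only tyrosine hydroxylase (Th) was called, higher in F by 0.48 ± 0.13 (adjusted p = 0.0293), and not kept, and the counts were 2 and 0 after either rescaling and 0 and 1 with the spread covariate.

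Other genes of large difference had varied roles. Gp2, an epithelial membrane glycoprotein related to Umod, lay at 8.78, 8.96, 8.22 and 8.39 in F and at 7.03, 6.83, 6.62 and 6.69 in L (1.79 ± 0.26, adjusted p = 1.05e-05). Slc7a12, an amino acid transporter, had a difference of 1.14 ± 0.18 on the probe set used for it and of 2.50 ± 0.24 on a second one, and no F array reached L on either. The tetraspanin Tspan1 (1.22), the RNA editing enzyme Apobec1 (1.14) and the translation factor subunit Eif3h (0.92) were also higher in F. Higher in L were Timd2, a ferritin receptor (-1.82 ± 0.38), the G protein subunit Gng7 (-1.69 ± 0.19), the nuclear receptor Rxrg (-1.43 ± 0.15), the RNA ligase Rtcb (-1.34 ± 0.22) and Srek1ip1 (-1.33 ± 0.24). Timd2 split its F arrays into 6.45 and 6.62 in replicates 1 and 2 and 4.71 in both others, against 7.16 to 7.75 in L. Rxrg lay at 4.51, 4.75, 4.89 and 5.21 in F and at 6.48, 6.06, 6.41 and 6.14 in L, with no overlap. The 2 largest differences of all came from probe sets without a single gene symbol, 7220176 (-4.82 ± 0.45) and 7330154 (-3.84 ± 0.45).

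The same strain contrast was also measured on other arrays, of kidneys that received carrier only and of kidneys at day 7. At day 0, 136 probe sets differed between F and L (1.55%), of which 61 were higher in F. Of the 340 called at day 10, 93 were also called at day 0 with the same sign, 27.4% of the day 10 calls and 68.4% of the day 0 calls, and 0 with the opposite sign. The day 0 difference had the same sign for 307 of the 340 (90.3%). The share over all probe sets was not computed, so 90.3% has no background beside it. At day 7, 188 probe sets differed (2.14%) and 105 were shared, 30.9% of the day 10 calls and 55.9% of the day 7 calls. All 3 days called 72 probe sets, 30 higher in F and 42 in L. The group means of these day comparisons share no arrays. Their standard errors come from the same fit to all 48 arrays. A probe set with a small spread is therefore favoured in every comparison, and the shared calls are not independent.

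Of the 30 leading genes, 25 were also called at day 0 and 26 at day 7, and all 30 had the same sign on both days. Akr1c2 differed by 3.02, 3.19 and 3.54 at days 0, 7 and 10, Ces1e by -2.75, -3.13 and -3.32, and Acsm5 by -2.40, -2.22 and -2.47. Ace differed by 1.60, 1.22 and 1.07, Klkb1 by 1.28, 1.24 and 1.24, and Lcn2 by -1.34, -0.90 and -1.31. The 5 leading genes not called at day 0 were Cyp1a1, Gabarapl2, Srek1ip1, Clec4a3 and Timd2.

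The strain difference at day 10 was also tested directly against that at day 0. No probe set passed this interaction contrast in limma, while 522 had an unadjusted p below 0.05 (5.93%), and against day 7 the count was 0, with 690 unadjusted (7.84%). Nr1d1, a repressor of the circadian clock, had the smallest interaction p among the members of the 30 lists. It lay at 7.05, 7.65, 7.45 and 7.26 in F and at 7.34, 8.57, 8.67 and 8.77 in L at day 10, and at 8.74 to 8.96 in F and 8.41 to 8.52 in L at day 0. The day 10 difference was called (adjusted p = 0.0216) and was not kept, with an adjusted p of 0.0545 with array medians subtracted and 0.0935 after the second quantile normalization. The strain difference moved from 0.40 at day 0 to -0.98 at day 10, an interaction of -1.38 ± 0.37 (unadjusted p = 0.000503, adjusted p = 0.650). Calb1 moved from 0.40 to -0.81 (unadjusted p = 0.00112, adjusted p = 0.650). Within F, Nr1d1 and Calb1 were lower at day 10 than at day 0 by -1.51 ± 0.26 and -1.50 ± 0.24 (adjusted p = 0.00173 and 0.000862). Nfil3, a clock output factor, was called higher in F at day 10 (0.79 ± 0.23, adjusted p = 0.0407, and 0.198 without L replicate 3). It was kept, was not called in the 8 arrays alone, and differed by -0.08 at day 0.

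**Figure D4:**
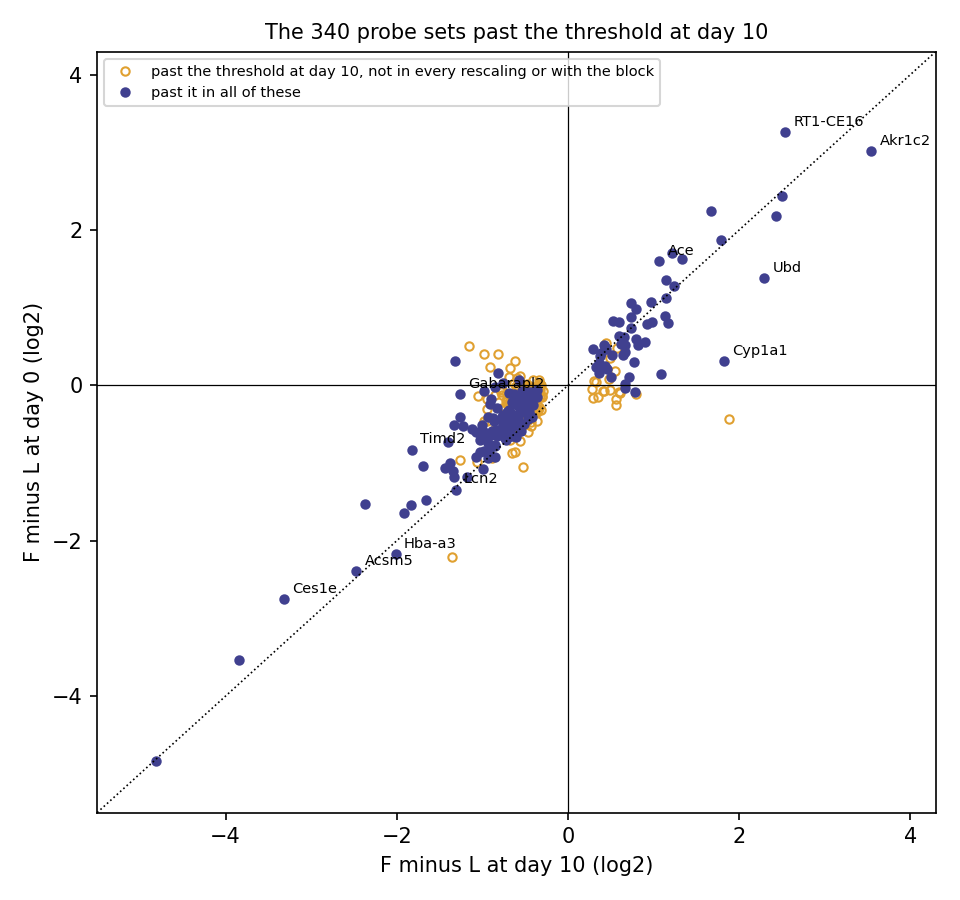
Difference F minus L at day 0 (log2, vertical axis) against that at day 10 (log2, horizontal axis) for the 340 probe sets called at day 10, with the dotted line marking equal differences. Dark points are the 176 kept calls and open points the other calls; 307 of the 340 have the same sign on both days, and Cyp1a1 lies close to 0 at day 0.

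FL and LF kidneys at day 10 share no arrays with the F and L means, but enter the same estimate of the spread. They differed at 219 probe sets (2.49%), 61 higher in FL and 158 in LF. Of the 340 F against L calls, 94 were called in the matching direction, F with FL and L with LF, which is 27.6% of the F against L calls and 42.9% of the FL against LF calls. Of the 30 leading genes, 20 were called in that direction, among them Akr1c2 (3.18), RT1-CE16 (2.80), Gp2 (2.29), Acsm5 (-2.25) and Ces1e (-1.99). Only Ace and Slfn9 were called in the opposite direction. Ace lay at 6.64, 6.20, 6.15 and 5.77 in FL and at 6.98, 6.70, 6.77 and 6.75 in LF, so every LF array was above every FL array, and FL minus LF was -0.61 ± 0.16 (adjusted p = 0.0232). Slfn9, of the interferon-inducible schlafen family, was higher in F than in L by 1.18 ± 0.27 and lower in FL than in LF by 0.96.

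The difference between the contrasts, F minus L less FL minus LF, was added after the values were seen and called 13 probe sets (0.148%), 6 of them among the 340. Ace had the smallest adjusted p (1.68 ± 0.22, adjusted p = 3.67e-05). Lcn2 differed more between LF and FL than between L and F, with LF arrays at 8.10, 7.86, 7.51 and 7.88 and FL arrays at 4.76, 4.61, 4.83 and 4.70, and a difference between the contrasts of 1.80 ± 0.29 (adjusted p = 0.000703). Slfn9, the second probe set of Slc7a12, Rtcb and Akr7a3 were the other 4. In Rtcb the L kidneys stood alone at a mean of 8.24, against 6.90 in F, 7.06 in FL and 6.96 in LF. On its second probe set, Slc7a12 was likewise apart in L alone, at a mean of 8.24, against 10.73 in F, 10.64 in FL and 10.28 in LF. Havcr1, which did not pass between F and L, differed between the contrasts (3.72 ± 0.77, adjusted p = 0.0185), with FL at 4.64 to 8.03 and LF at 7.32 to 9.32.

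**Figure D5:**
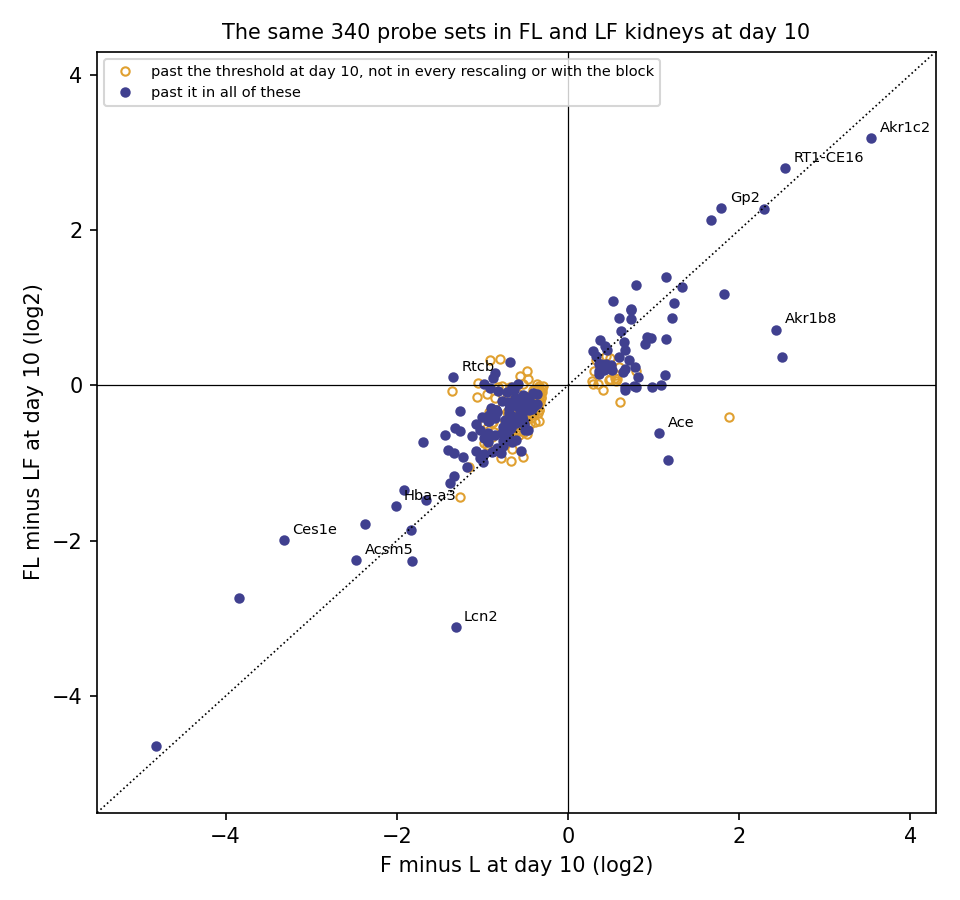
Difference FL minus LF at day 10 (log2, vertical axis) against F minus L at day 10 (log2, horizontal axis) for the 340 probe sets called in F against L, with the dotted line marking equal differences. Dark points are the 176 kept calls and open points the other calls; Ace lies in the quadrant of opposite signs, and Lcn2 lies below the dotted line.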

How the data were processed

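Total kidney RNA was purified, depleted of ribosomal RNA and labelled for whole-transcript arrays, per the labels' protocols. RMA and limma appear in the submitters' processing notes, with no version and no stated role. The authors deposited log2 signals, 1 per probe set, normalized with RMA as far as those notes tell. The array's genome build is not given in the sources used here. The table held 8797 probe sets, of which 7603 carried 1 gene symbol, 409 several and 785 none, and 7584 were matched to RefSeq by Entrez identifier.

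With limma 3.58.1 in R 4.3.3, a model with 12 group means was fitted to the 48 arrays (36 residual and 3.69 prior degrees of freedom). Contrasts were read from that fit, with Benjamini-Hochberg adjustment over all probe sets. The number of arrays limits the precision. Alternatives changed the arrays fitted, the scaling, the replicate block, the weights, the filter on dim probe sets and the variance trend, and each day 10 array was left out in turn. Residuals of F and L arrays of the same number correlated at 0.061, 0.0080, -0.12 and 0.099, and over all 48 arrays at 0.094 for the same number and -0.031 for different numbers. The pairing by number rests on the shared stem of the array codes alone, and no F and L pair correlated above 0.1.

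Named genes were the 15 largest called differences per direction with 1 symbol and no overlap, the 10 smallest interaction p, up to 4 members per list by p, and Ace, Agt, Agtr1a, Cyp1a1, Hmox1, Havcr1 and Lcn2. For 14 symbols with several probe sets the brightest was used. Slfn9, Akr7a3, Akr1b10, Prdx1, Mme, the tissue markers, the genes at the threshold, neighbouring genes and further list members were added after their values were seen. The comparison and the 30 lists (659 of 1063 genes measured) were chosen with earlier results of these data known, and no set test was run. The scripts were tested on simulated data.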

Additional observations from a re-analysis of the deposited data

Results flagged for a closer look

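In each of the named genes, 1 array far from the other 3 of its group was looked for with Dixon's test at its 95% critical value. Of 288 groups of 4 arrays, 15 were marked, and chance alone marks about 1 in 20 groups. L replicate 1 accounts for 8 of the 15 and F replicate 4 for 4.

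In F replicate 4, Hmox1 was at 5.74 against 8.61 to 9.09 in the other F arrays, Fxyd4 at 6.09 against 6.60 to 6.68, Ccnd2 at 7.53 against 7.84 to 7.85, and Cd8a at 5.79 against 5.23 to 5.32. In F replicate 1, Tpsab1 was at 3.62 against 3.64.

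In L replicate 1, the clock genes Nr1d1 and Per3 were at 7.34 and 6.36, against 8.57 to 8.77 and 6.65 to 6.69 in the other L arrays. In the same array Hbb-b1 was at 10.26 against 9.18 to 9.32, Nupr1 at 8.51 against 7.98 to 8.06, Hspb1 at 7.90 against 7.42 to 7.45, RT1-M3-1 at 5.77 against 5.25 to 5.33, Fxyd4 at 7.41 against 7.01 to 7.04, and Rgs5 at 8.30 against 8.24 to 8.25. In L replicate 2, Pdk1 was at 5.74 against 6.01 to 6.06, and in L replicate 4, Slc14a1 at 6.79 against 6.08 to 6.19.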

How the results depend on the processing

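The count of 340 for F against L at day 10 was 67 in the 8 arrays alone, 811 with the replicate block, 661 with array weights and 176 for calls that hold together, and 174 to 630 without 1 array. At day 0 the count of 136 became 248 with array medians subtracted and 289 after a second quantile normalization, and at day 7 the 188 became 308 and 347. FL against LF at day 10 went from 219 to 350 with the replicate block and to 361 and 433 after the 2 rescalings. The interaction of day 10 with day 0 called 0 without any 1 array and 1 with array weights. The 8 macrophage calls were 0, 4 and 2 in the 8 arrays, the 24 arrays and with the spread covariate, and 2 to 8 without 1 array. Of 144 genes named by the rule, 69 were called. Of these, 40 lost their call in no alternative fitted to more than 8 arrays, including those without 1 array. The fit without the dimmest 25% of probe sets left out some named genes, so it could not test their calls. The pairing by replicate block lost 0 of the 69 calls and added 28. The uncalled differences of 4 genes changed sign: Cd79b to -0.081 and Kit to 0.010 and Pcna to 0.11 with the spread covariate, and, without 1 array, Cd79b ranged from -0.0025 to 0.19 and Xbp1 from -0.0025 to 0.091. The causes were not tested. The deposited values carry no measure of background, so no limit of detection can be given for dim probe sets.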
